A study of Rattus norvegicus with 23 samples.

Results

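NRF2 target and iron handling genes were followed in microglia of newborn rats after an inflammatory stimulus, hypoxia-ischemia (HI) or both. The members were 10 listed genes of the 20301 genes in the deposited table, all 10 were measured, and none was removed by a filter. They were Nqo1, Gclm, Gclc, Slc7a11, Prdx1, Txnrd1, Srxn1, Hmox1, Fth1 and Slc40a1. Wistar rat pups of both sexes were 7 days old. Sham pups (n = 6) had a neck incision and no listed injection. LPS pups (n = 5) received 0.1 mg/kg lipopolysaccharide (LPS), a bacterial cell wall component, into the peritoneum 4 h before a sham operation. NaCl/HI pups (n = 6) received saline, ligation of the left common carotid artery and 50 min of hypoxia at 8% oxygen, and LPS/HI pups (n = 6) received LPS in place of saline. After 24 h, cells were collected with magnetic beads against CD11b/c and total RNA was sequenced. For Sham and LPS a sample was 1 pup's entire brain, whereas an HI sample pooled the ipsilateral hemispheres of 2 pups. HI therefore cannot be told apart from the tissue taken and from pooling, and LPS against Sham also sets injected beside uninjected pups.

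NRF2, encoded by Nfe2l2, is a transcription factor that KEAP1 holds in the cytoplasm and marks for degradation. When oxidants or electrophiles modify KEAP1, NRF2 accumulates, pairs with small MAF proteins and binds antioxidant response elements, where BACH1 is its competitor. Its targets make glutathione, reduce peroxides and quinones, and handle heme and iron. In macrophages and microglia, heme oxygenase 1 (Hmox1) releases iron from heme, ferritin (Fth1 and Ftl1) stores it, and ferroportin (Slc40a1) exports it.

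The upstream sequences of the members were searched for the core of the antioxidant response element, TGACNNNGC, on both strands. RefSeq promoter windows of the GRCr8 build, which run from 250 bases before to 50 bases after a gene start, were matched by symbol for 8 of the 10 members, in 9 windows. Hmox1 and Fth1 had no entry. The core was found in the windows of 3 members, Gclm, Txnrd1 and Prdx1, and in 12.1% of all 33469 windows of that length. The 250 bases before the start are shown for these 3 because they carry the motif through which NRF2 is known to act, and they differ in how their genes behaved. Sequences run 5′ to 3′ along the gene, and capitals mark the match, which in all 3 lies on the opposite strand and reads there as TGACNNNGC. Gclm lies on the plus strand (chr2:213031885-213032134), with 163 bases between the match and the start. Txnrd1 had 2 windows, of which 1 held no match, and the other is shown, on the minus strand (chr7:22755905-22756154), with 69 bases in between. The Prdx1 window is on the plus strand (chr5:135383656-135383905), with 126 bases in between.
Gclm: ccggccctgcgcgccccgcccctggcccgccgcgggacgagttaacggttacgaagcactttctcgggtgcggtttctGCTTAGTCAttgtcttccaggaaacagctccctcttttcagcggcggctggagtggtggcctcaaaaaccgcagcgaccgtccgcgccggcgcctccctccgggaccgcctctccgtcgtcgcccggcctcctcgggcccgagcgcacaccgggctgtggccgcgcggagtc
Txnrd1: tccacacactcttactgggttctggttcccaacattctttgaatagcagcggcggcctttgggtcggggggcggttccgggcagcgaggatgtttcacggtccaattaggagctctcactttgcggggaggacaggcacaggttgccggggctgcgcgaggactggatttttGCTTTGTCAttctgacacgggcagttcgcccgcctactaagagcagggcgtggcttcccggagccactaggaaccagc
Prdx1: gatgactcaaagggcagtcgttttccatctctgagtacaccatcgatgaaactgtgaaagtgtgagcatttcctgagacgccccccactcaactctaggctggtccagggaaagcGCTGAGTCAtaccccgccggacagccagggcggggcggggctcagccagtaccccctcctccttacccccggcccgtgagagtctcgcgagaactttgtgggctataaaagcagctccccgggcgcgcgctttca

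In Gclm and Txnrd1 the core was followed by A, as in 3.0% of all windows, and in Prdx1 it was not. The AP-1 core TGANTCA was present in the windows of 2 members, Srxn1 and Prdx1, and in 7.33% of all windows. Each of them held 2 matches, and 1 of those in Prdx1 overlapped the antioxidant response element core. The loop of iron responsive elements, CAGTGN, was searched on the gene's own strand and found in 3 members (Nqo1, Txnrd1 and Slc7a11) and in 34.9% of all windows. Such elements act in the transcript, and only 2 members, Txnrd1 and Slc7a11, had a match after the start. A match is a run of letters and not a measured site. No match says only that these letters are not in this window.

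All values are log2 values on the rlog scale of DESeq2, a transformation that draws weakly expressed genes toward their mean, after the authors had removed 3 surrogate variables. Library medians lay between 7.75 and 7.82. Read depth was not analysed here, and transcript length is not part of the values, so levels were compared between samples and not between genes. The deviations of samples from their group means had a rank of 16 and not 19, so p-values that take no account of this may be too small. As a check of the labelled cell type, all 12 microglial markers were measured, with a list mean between 13.91 and 14.26 in all 23 libraries. As the samples are bulk RNA, fewer cells of a type and less RNA per cell cannot be told apart.

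LPS against Sham asked what inflammation alone did to these genes. Prdx1 and Fth1 were higher after LPS and Slc40a1 was lower, so 3 of 10 members passed an adjusted p under 0.05 in limma, 2 upward and 1 downward. Among all genes 17.8% passed, 10.2% upward and 7.56% downward. The groups did not overlap for 2 members, Fth1 and Slc40a1, beside 13.9% of all genes. The median log2 difference over the 10 members was 0.01, beside -0.01 over all genes.

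NaCl/HI against Sham asked the same of HI alone. None of the 10 members passed in limma, beside 0.00985% of all genes. That share rested on NaCl/HI replicate 4, without which it was 2.98% and 1 member, Prdx1, passed. At an unadjusted p under 0.05 there was 1 member, Prdx1, beside 14.8% of all genes. The exact Wilcoxon rank-sum test adjusted over all genes gave 0 members and 0 genes in all. The mean was higher than in Sham for 8 of 10 members, with a median log2 difference of 0.06 beside -0.01 over all genes.

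LPS/HI against Sham asked about the combined insult. Nqo1, Gclm, Slc7a11 and Fth1 were higher, so 4 of 10 members passed in limma, all upward, beside 8.77% of all genes in either direction and 5.3% upward. With 1 library left out the share of 8.77% ranged from 4.2% (without LPS/HI replicate 5) to 13.1% (without LPS/HI replicate 1), and it was at most 5.58% also without LPS/HI replicate 2, 3 or 4 or Sham replicate 5 or 6. The groups did not overlap for 3 of them, Nqo1, Gclm and Fth1, beside 6.37% of all genes. The median log2 difference over the 10 members was 0.20, beside 0.00 over all genes. All these changes were small. The largest absolute log2 difference from Sham was 0.41, and 0 of 10 members passed with a fold change above 2, as did 0.069% of all genes in LPS and 0.0936% in LPS/HI.

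**Figure D1:**
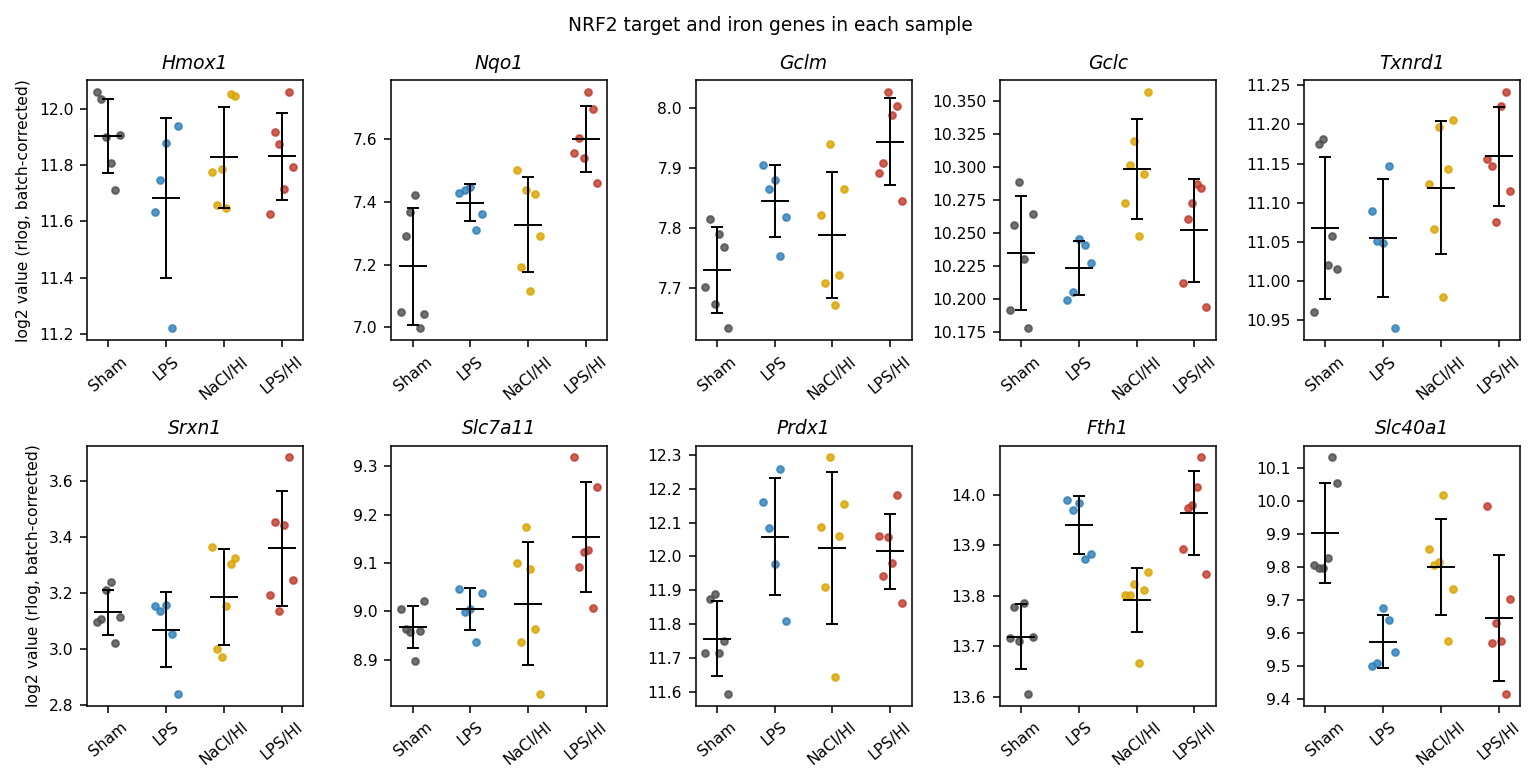
Log2 value (rlog scale) of each member in every sample of the 4 groups, 1 panel per gene with its own axis that does not start at 0. Points are samples, long ticks are group means and bars are the SD. For Fth1 all LPS and LPS/HI points lie above all Sham points, whereas the Hmox1 groups overlap.

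Fth1 encodes the heavy chain of ferritin, the subunit that oxidizes iron for storage. Its log2 value ranged in Sham from 13.61 to 13.79 with a median of 13.72. The 5 LPS samples had 13.99, 13.97, 13.98, 13.87 and 13.88. NaCl/HI ranged from 13.67 to 13.85 with a median of 13.81, and LPS/HI from 13.84 to 14.07 with a median of 13.98. Every LPS and LPS/HI sample was thus above every Sham sample, and NaCl/HI lay in between with overlap. The log2 difference from Sham was 0.22 in LPS (SE 0.05, limma adjusted p = 0.0035) and 0.24 in LPS/HI (SE 0.05, adjusted p = 0.0047), increases of 16.5% and 18.4%. In NaCl/HI it was 0.07 (95% interval -0.02 to 0.17, adjusted p = 0.473). Both calls held in all 23 fits that left out 1 library. Within replicates 1 to 3 and within replicates 4 to 6 the log2 difference was 0.25 and 0.17 for LPS, and 0.21 and 0.27 for LPS/HI. Of these 4 values the first alone passed.

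Ftl1 encodes the ferritin light chain, which builds the iron core and assembles with the heavy chain. Its log2 difference from Sham was 0.03 in LPS (adjusted p = 0.820) and 0.00 in LPS/HI (adjusted p = 0.980), and it did not pass. The log2 ratio of Fth1 to Ftl1 within each sample was therefore compared, a test chosen after these values had been seen. Only its difference between groups can be read, since its level depends on transcript length. The ratio was higher than in Sham by 0.19 in LPS and by 0.24 in LPS/HI (exact two-sided permutation test, p = 0.0043 in each, adjusted p = 0.0069 over 8 ratio comparisons). LPS/HI also exceeded NaCl/HI, by 0.23 (exact permutation test, p = 0.0022, adjusted p = 0.0058), and both of these groups were ipsilateral hemispheres of pooled pups. This p is the smallest that 6 against 6 samples allow. NaCl/HI differed from Sham by 0.01 (exact permutation test, p = 0.768). As the ratio was chosen on these samples, its test is no independent evidence of the Fth1 change.

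The table also lists near-identical copies, and reads may be split among them, so the ferritin values are uncertain to that degree. Fth1-ps5, a ferritin heavy chain pseudogene, had log2 values from 3.13 to 3.73. It was higher in LPS/HI than in Sham by 0.30 (adjusted p = 0.022), and by 0.11 in LPS (adjusted p = 0.389). Ftl1l1, a copy of the light chain, was higher in LPS/HI by 0.41 (adjusted p = 0.038), and Ftl1-ps14 by 0.20 (adjusted p = 0.207). In NaCl/HI these copies of the light chain differed from Sham by 0.45 (adjusted p = 0.147) and 0.21 (adjusted p = 0.328), and in LPS by 0.31 (adjusted p = 0.093) and 0.05 (adjusted p = 0.775).

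**Figure D2:**
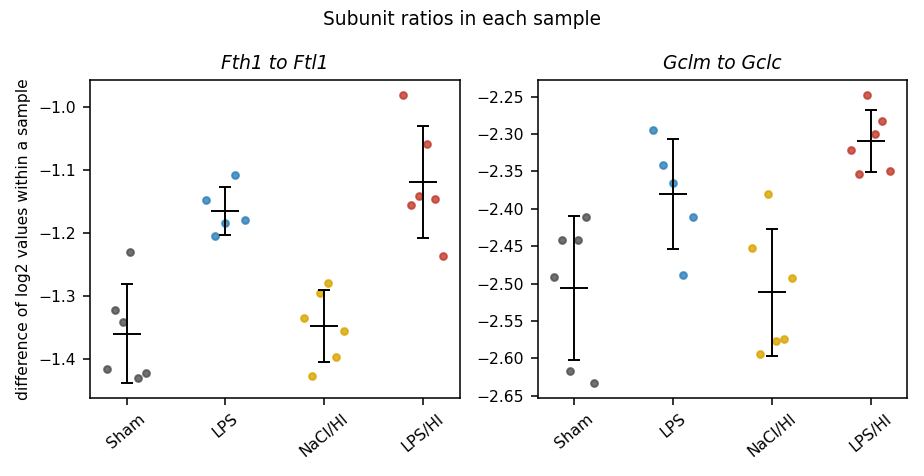
Difference of log2 values within each sample, Fth1 minus Ftl1 on the left and Gclm minus Gclc on the right, by group. Points are samples, long ticks are means and bars are the SD. In both panels LPS/HI lies above NaCl/HI without overlap, and NaCl/HI overlaps Sham.

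Slc40a1 encodes ferroportin, the known route by which cells export iron. Sham samples ranged from 9.80 to 10.13 with a median of 9.82. The LPS samples had 9.50, 9.51, 9.68, 9.64 and 9.54, all below every Sham sample. NaCl/HI ranged from 9.58 to 10.02 with a median of 9.81, and LPS/HI from 9.42 to 9.98 with a median of 9.60. The log2 difference from Sham was -0.33 in LPS (SE 0.09, limma adjusted p = 0.014), a decrease that held in all 23 fits without 1 library. The difference was -0.24 within replicates 1 to 3 (adjusted p = 0.148) and -0.41 within replicates 4 to 6 (adjusted p = 0.137), where it did not pass. In LPS/HI it was -0.26 (SE 0.09, adjusted p = 0.063), with 5 of 6 samples below every Sham sample. Replicate 1 of LPS/HI, at 9.98, was the exception, and without it the log2 difference was -0.32 (adjusted p = 0.012). It was also past the threshold without replicate 4 of NaCl/HI (adjusted p = 0.047) and with 19 in place of 16 residual degrees of freedom (adjusted p = 0.033). In all, it passed in 2 of 23 fits without 1 library, where the adjusted p reached 0.156, and in 1 of 12 other settings. In these 2 series of replicates, the LPS/HI difference was -0.07 and -0.44. NaCl/HI did not pass, with -0.10 (95% interval -0.28 to 0.08).

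Border-associated macrophages are iron-handling macrophages of the meninges and vessels and carry CD11b too. Of their 10 markers 3 fell in LPS (Mrc1 by 0.50, Lyve1 by 0.83 and Stab1 by 0.44 on the log2 scale), 1 rose (Cbr2 by 0.18) and 6 did not pass, beside 7.56% of all genes lower and 10.2% higher. The list mean ranged from 10.67 to 11.33 in Sham and from 10.63 to 10.89 in LPS, and none of the 10 was under 2 in every library. In the same comparison 3 of 8 endothelial markers fell (Flt1 by 0.20, Kdr by 0.29 and Esam by 0.30) and 1, Pecam1, rose by 0.15, with list means from 10.67 to 10.94 in Sham and from 10.55 to 10.79 in LPS. Of 8 neuronal markers 5 fell (Snap25, Syt1, Slc17a7, Stmn2 and Nefl), with list means from 6.76 to 6.98 in Sham and from 6.50 to 6.71 in LPS. Of 12 microglial markers 5 fell, among them P2ry12 and Cx3cr1, and 2 rose (C1qa and C1qb). The part of these lists in the Slc40a1 result was not tested.

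Hmox1 encodes heme oxygenase 1, which opens the heme ring and frees its iron. Its highest mean was in Sham, with values from 11.71 to 12.06 and a median of 11.90. The LPS samples had 11.63, 11.75, 11.88, 11.22 and 11.94. NaCl/HI ranged from 11.65 to 12.05 and LPS/HI from 11.63 to 12.06, so all 4 groups overlapped. The log2 difference from Sham was -0.22 in LPS (95% interval -0.45 to 0.01, adjusted p = 0.181), -0.08 in NaCl/HI (-0.30 to 0.15) and -0.07 in LPS/HI (-0.29 to 0.15). Without LPS replicate 4, at 11.22, the LPS difference was -0.10. No call was made for Hmox1 in any comparison.

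Nqo1 encodes a quinone reductase that uses NADPH or NADH and is a classic NRF2 target. Sham ranged from 7.0 to 7.42 with a median of 7.17. The LPS samples had 7.43, 7.44, 7.45, 7.31 and 7.36. In NaCl/HI the values ran from 7.12 to 7.50 with a median of 7.36. LPS/HI ranged from 7.46 to 7.75 with a median of 7.58, and all 6 were above every Sham and every LPS sample. The log2 difference of LPS/HI from Sham was 0.41 (SE 0.08, limma adjusted p = 0.0069), an increase of 32.6%, the largest among the members in this comparison. It passed in all 23 fits without 1 library. Within the 2 series of replicates it was 0.33 and 0.48, and neither passed (adjusted p = 0.168 and 0.173). LPS differed from Sham by 0.20 (95% interval 0.02 to 0.38, adjusted p = 0.115) and NaCl/HI by 0.13 (-0.04 to 0.31, adjusted p = 0.466).

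Glutathione is made from cysteine in a first, rate-limiting step by glutamate-cysteine ligase, of which Gclc is the catalytic and Gclm the modifier subunit. Gclm ranged in Sham from 7.63 to 7.82 with a median of 7.73. The LPS samples had 7.90, 7.86, 7.88, 7.75 and 7.82. NaCl/HI ranged from 7.67 to 7.94 and LPS/HI from 7.84 to 8.03 with a median of 7.95, above every Sham sample. The log2 difference of LPS/HI from Sham was 0.21 (SE 0.06, limma adjusted p = 0.023). In the 2 series of replicates it was 0.21 and 0.22, and neither passed (adjusted p = 0.285 and 0.230). The call was also lost without replicate 3 (adjusted p = 0.053) or replicate 5 (0.056) of LPS/HI or replicate 6 of Sham (0.053). LPS differed by 0.11 (adjusted p = 0.184) and NaCl/HI by 0.06 (adjusted p = 0.655).

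Gclc varied little. Sham ranged from 10.18 to 10.29, NaCl/HI from 10.25 to 10.36 and LPS/HI from 10.19 to 10.29. The LPS samples had 10.20, 10.21, 10.25, 10.24 and 10.23. LPS/HI differed from Sham by 0.02 (95% interval -0.05 to 0.08) and no comparison passed. The log2 ratio of Gclm to Gclc of LPS/HI exceeded that of Sham by 0.20 and that of NaCl/HI by 0.20 (exact two-sided permutation test, p = 0.0022 in each, adjusted p = 0.0058 over the same 8 ratio comparisons). In LPS it was higher than in Sham by 0.13 (exact permutation test, p = 0.043, adjusted p = 0.058), and in NaCl/HI it differed by -0.01 (p = 0.913). As this ratio was chosen after Gclm and Gclc had been seen, its test restates their values and is no independent evidence.

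Slc7a11 encodes the cystine-glutamate exchanger xCT, which brings in cystine for glutathione. Sham ranged from 8.90 to 9.02 with a median of 8.96, and the LPS samples had 9.05, 9.0, 9.0, 8.94 and 9.04. Values of NaCl/HI ran from 8.83 to 9.17 and those of LPS/HI from 9.01 to 9.32 with a median of 9.13. In LPS/HI 5 of 6 samples were above every Sham sample. The log2 difference of 0.19 (SE 0.06, limma adjusted p = 0.047) lay just inside the threshold and passed in 7 of 23 fits without 1 library, where the adjusted p reached 0.088. It was lost without any of the 6 Sham libraries, any LPS/HI library except replicate 5, LPS replicate 1, 2 or 3, or NaCl/HI replicate 1 or 5. With the quantile scaling it was 0.15 (adjusted p = 0.132), and with median centring 0.17 (adjusted p = 0.070). The call was also lost with the replicate number as a block (adjusted p = 0.060) and within replicates 1 to 3 (0.268) or 4 to 6 (0.310). LPS differed by 0.04 (95% interval -0.09 to 0.16) and NaCl/HI by 0.05 (-0.07 to 0.17).

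Astrocytes are known to express xCT and glutathione genes. For the marker counts below, the shares of all genes were 5.3% upward and 3.48% downward in LPS/HI, and 10.2% and 7.56% in LPS. In LPS/HI 2 of 9 astrocyte markers were higher than in Sham, Gfap by 0.84 and S100b by 0.39. In LPS 3 of 9 were higher, Aldh1l1 by 0.26, Aldoc by 0.31 and Fgfr3 by 0.37. The median log2 difference of the 9 was 0.20 in LPS/HI and 0.26 in LPS. The list mean ranged from 10.27 to 10.71 in Sham, from 10.52 to 10.88 in LPS, from 10.18 to 10.96 in NaCl/HI and from 10.61 to 10.88 in LPS/HI. Their part in the Slc7a11, Gclm and Nqo1 results was not tested. Neutrophil markers were higher in LPS/HI for 5 of 13, among them S100a8 by 1.11 and S100a9 by 1.18, with list means from 6.38 to 6.82 in Sham and from 6.58 to 7.50 in LPS/HI. Elane was under 2 in every library. The part of neutrophils in the Fth1 and other LPS/HI results was not tested. In LPS the neutrophil list mean was 6.19 to 6.65, 1 of 13 markers rose (Csf3r by 0.24) and 2 fell (Ngp by 1.07 and Camp by 0.71). Of 8 monocyte markers 2 rose in LPS/HI and 1 in LPS, with Plac8 called in both. In LPS/HI 3 of 8 neuronal markers (Snap25, Syt1 and Slc17a7) and 2 of 12 microglial markers (Sall1 and P2ry13) fell. So did 1 of 10 border-associated macrophage markers (Lyve1), and 1 of 8 endothelial markers (Pecam1) rose. The part of these lists in the LPS/HI results was not tested.

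Prdx1 encodes a peroxiredoxin that reduces hydrogen peroxide. Sham ranged from 11.59 to 11.89 with a median of 11.73. The LPS samples had 12.16, 12.08, 11.98, 12.26 and 11.81, with 4 of 5 above every Sham sample. NaCl/HI ranged from 11.64 to 12.29 with a median of 12.07, and LPS/HI from 11.86 to 12.18 with a median of 12.02. The log2 difference from Sham was 0.30 in LPS (SE 0.10, limma adjusted p = 0.033), 0.27 in NaCl/HI (SE 0.09, adjusted p = 0.204) and 0.26 in LPS/HI (SE 0.09, adjusted p = 0.076). LPS/HI differed from LPS by -0.04 (95% interval -0.24 to 0.16) and LPS from NaCl/HI by 0.03 (-0.16 to 0.23), so a difference among the 3 insults was not shown. The LPS call passed in 16 of 23 fits without 1 library. It was lost without Sham replicate 1, 4, 5 or 6 or LPS replicate 1, 2 or 4, where the adjusted p lay between 0.052 and 0.097, with the replicate block (adjusted p = 0.063), by the exact Wilcoxon test (adjusted p = 0.070), and within replicates 1 to 3 (0.122) or 4 to 6 (0.300). Without NaCl/HI replicate 4, at 11.64, the NaCl/HI difference was 0.35 (adjusted p = 0.026) and the adjusted p of LPS/HI was 0.032. LPS/HI also passed with 19 in place of 16 residual degrees of freedom in the fit (adjusted p = 0.041) and with only the groups compared (adjusted p = 0.019). In all, LPS/HI passed in 1 of 23 fits without 1 library, where the adjusted p reached 0.169, and in 2 of 12 other settings. NaCl/HI passed in 1 of 23 such fits, where the adjusted p reached 0.355, and in 0 of 12 other settings. The copy Prdx1l1 differed from Sham by -0.05 in LPS and did not pass in any comparison.

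Txnrd1 encodes cytosolic thioredoxin reductase, and Srxn1 encodes sulfiredoxin, which restores overoxidized peroxiredoxins. Txnrd1 lay between 10.94 and 11.24 in all samples, and LPS/HI differed from Sham by 0.09 (95% interval -0.01 to 0.19, adjusted p = 0.242). Srxn1 lay between 2.84 and 3.68, low values at which rlog shrinks differences. LPS/HI ranged from 3.14 to 3.68 and Sham from 3.02 to 3.24, a log2 difference of 0.23 (95% interval 0.04 to 0.42, adjusted p = 0.115). Neither gene passed in any comparison. Of the 3 members whose windows hold the antioxidant response element core shown above, Gclm passed in LPS/HI, Prdx1 passed in LPS, and Txnrd1 did not pass. Of the 5 members with a window but without the core, Nqo1 and Slc7a11 passed in LPS/HI, Slc40a1 passed in LPS, and Gclc and Srxn1 did not pass, so members were called both with and without the core.

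**Figure D3:**
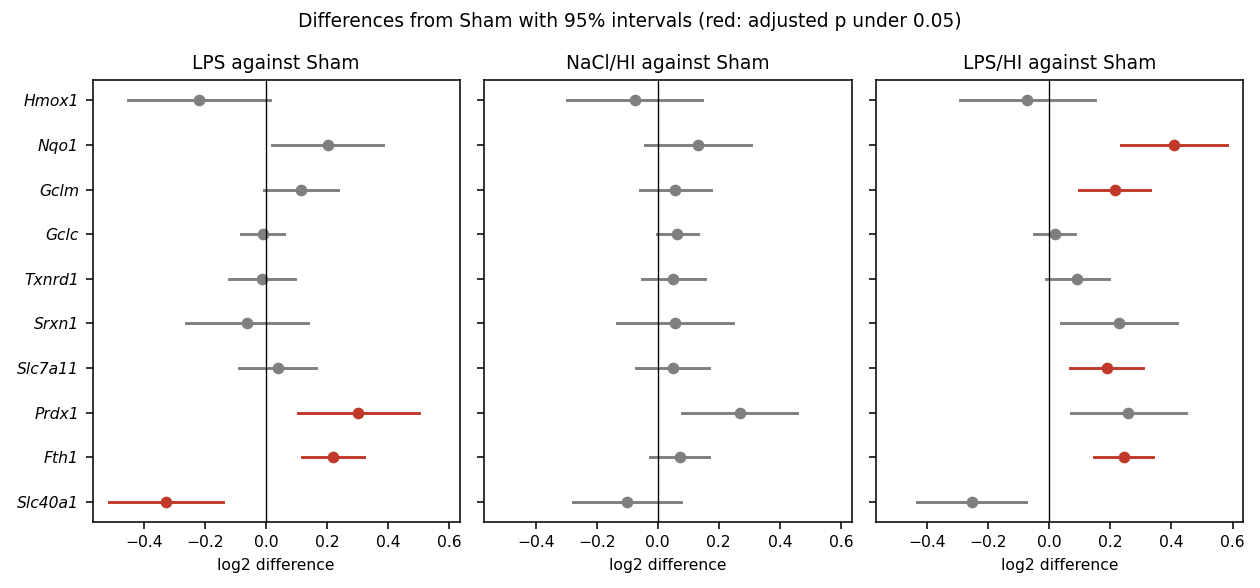
Log2 difference from Sham (rlog scale, horizontal axis) of the 10 members in LPS, NaCl/HI and LPS/HI. Points are limma estimates, lines are 95% intervals without adjustment, and red marks an adjusted p under 0.05, which was reached by 3 members in LPS, 0 in NaCl/HI and 4 in LPS/HI.

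The remaining comparisons set the insults beside one another. Between LPS/HI and NaCl/HI, which differ in LPS and share tissue and pooling, limma called 0 of 10 members, beside 0.202% of all genes. At an unadjusted p under 0.05 there were 4, beside 10.6% of all genes, and the exact Wilcoxon test gave 0 members and 0 genes in all. The largest log2 difference was 0.27 for Nqo1 (SE 0.08, adjusted p = 0.191), with 5 of 6 LPS/HI samples above every NaCl/HI sample. Srxn1 (adjusted p = 0.531) and Fth1 (SE 0.05, adjusted p = 0.121) each had 0.17.

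Between LPS/HI and LPS, which also differ in the tissue taken and in pooling, limma called 0 of 10 members, beside 1.94% of all genes. There were 3 at an unadjusted p under 0.05, beside 15.5% of all genes, and the exact Wilcoxon test gave 0 members and 0 genes in all. Nqo1 was the single member without overlap, beside 4.17% of all genes, with a log2 difference of 0.20 (95% interval 0.02 to 0.39, adjusted p = 0.249). Srxn1 had 0.29 (95% interval 0.09 to 0.49, adjusted p = 0.119).

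Between LPS and NaCl/HI, which also differ in the tissue taken and in pooling, limma called 0 of 10 members, beside 8.98% of all genes. There were 3 at an unadjusted p under 0.05, beside 23% of all genes, and the exact Wilcoxon test gave 0 members and 0 genes in all. Fth1 (log2 difference 0.15, adjusted p = 0.061) and Gclc (-0.08, adjusted p = 0.184) did not overlap, as 7.31% of all genes did not. The interaction of LPS with HI, that is whether the effect of LPS differed between the HI and the other pups, passed in limma for 0 of 10 members and 1.08% of all genes. At an unadjusted p under 0.05 there was 1, beside 15.1% of all genes. It was Prdx1, with -0.31 (95% interval -0.59 to -0.04, adjusted p = 0.259). LPS/HI had the highest mean in 6 of 10 members. For Fth1 the neighbours LPS/HI and LPS differed by 0.02 (95% interval -0.08 to 0.12), and for Gclm by 0.10 (-0.02 to 0.22), so these orders did not exceed the spread. For Slc7a11 LPS/HI lay above its neighbour NaCl/HI by 0.14 (0.02 to 0.26, adjusted p = 0.383), for Srxn1 by 0.17 (-0.02 to 0.36), for Txnrd1 by 0.04 (-0.06 to 0.14), and for Nqo1 above LPS by the 0.20 given above.

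Further genes of the same processes were taken from 7 lists with 94 genes, of which 89 were measured. In LPS 25 of them passed against Sham, 22 upward and 3 downward, which is 28.1% beside the 17.8% of all genes. In LPS/HI 16 passed, 15 upward and 1 downward, which is 17.98% beside 8.77%. The lists, like the members, were chosen with earlier results of these data known, so these shares are no independent evidence of an excess. The level of expression was not matched between the lists and all genes. The median log2 difference of the 89 genes was 0.08 in LPS and 0.07 in LPS/HI. In NaCl/HI limma and the exact Wilcoxon test called 0 of the 89, and 26 had an unadjusted p under 0.05, beside 14.8% of all genes.

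**Figure D4:**
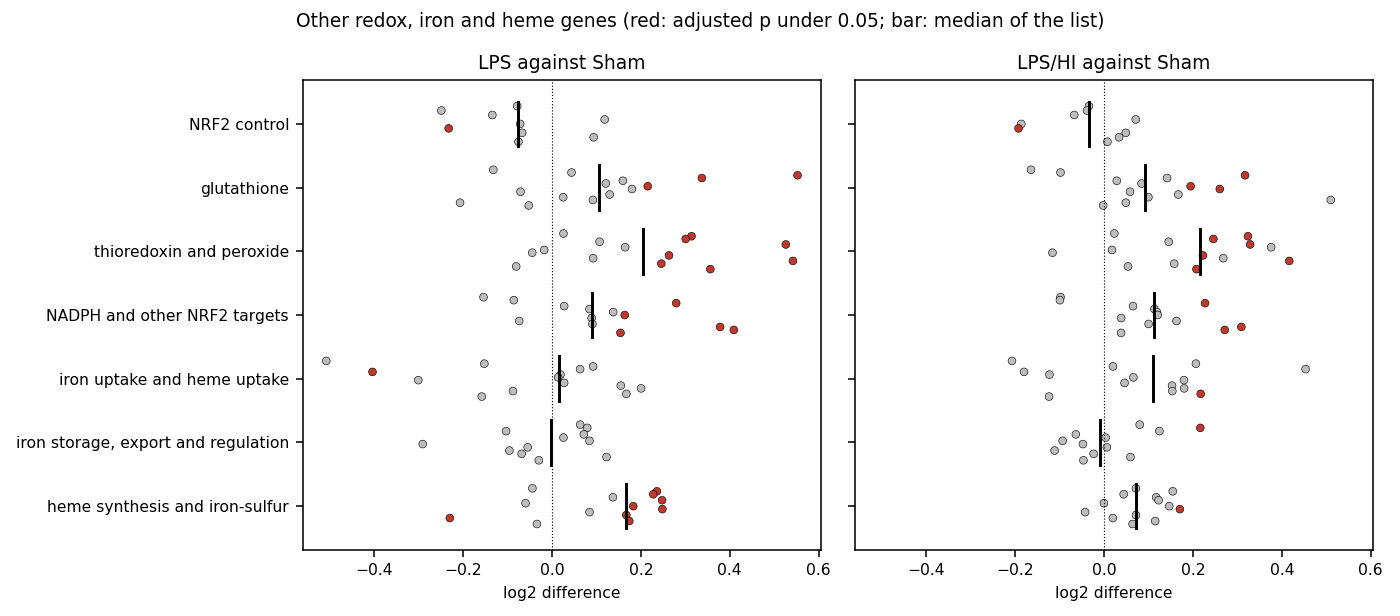
Log2 difference from Sham (rlog scale, horizontal axis) of 89 further genes in 7 lists, for LPS on the left and LPS/HI on the right. Each point is a gene, red marks an adjusted p under 0.05, and vertical bars are list medians; most red points lie in the thioredoxin, glutathione, NADPH and heme lists.

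Of 9 measured regulators of NRF2, 1 fell in LPS and in LPS/HI, Mafg, a small MAF partner of NRF2 and BACH1 (by 0.23, adjusted p = 5.5e-04, and by 0.19, adjusted p = 0.0070). In LPS 3 of the 9 had an unadjusted p under 0.05 and 3 passed the exact Wilcoxon test. Bach2, a relative of Bach1 named after its values had been seen, differed by -0.25 in LPS (adjusted p = 0.096). Nfe2l2 ranged from 11.87 to 12.04 in Sham, from 11.72 to 12.04 in NaCl/HI and from 11.85 to 12.10 in LPS/HI, and reached 12.10 in LPS with a median of 12.05. It differed from Sham by 0.09 in LPS (adjusted p = 0.240) and by 0.03 in LPS/HI (adjusted p = 0.718), and passed for LPS against NaCl/HI alone, with 0.17 (adjusted p = 0.045). Keap1 differed from Sham by 0.12 in LPS and Bach1 by -0.08, and neither passed. These are transcript levels, and the NRF2 protein was not measured in this table.

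Enzymes around thioredoxin and peroxide had the most calls among the redox lists. Of 14 genes, 7 rose in LPS and 6 in LPS/HI, and none fell. Txn1, thioredoxin itself, ranged from 10.30 to 10.63 in Sham, from 10.81 to 11.15 in LPS, from 10.35 to 10.89 in NaCl/HI and from 10.75 to 11.04 in LPS/HI. It rose by 0.54 (SE 0.09, adjusted p = 1.8e-04) in LPS and by 0.42 (adjusted p = 0.0058) in LPS/HI. Prdx4, the peroxiredoxin of the endoplasmic reticulum, rose by 0.53 (adjusted p = 4.7e-05) and 0.33 (adjusted p = 0.0087). Txnrd2, the mitochondrial counterpart of Txnrd1, rose by 0.36 and 0.21 (adjusted p = 0.026 in LPS/HI).

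Of 14 glutathione genes 3 rose in LPS and 3 in LPS/HI. Glrx, glutaredoxin, which removes glutathione from proteins, ranged from 9.80 to 10.04 in Sham, from 10.34 to 10.62 in LPS, from 9.69 to 9.97 in NaCl/HI and from 10.10 to 10.35 in LPS/HI. It rose by 0.55 in LPS (SE 0.06, adjusted p = 4.9e-06) and by 0.32 in LPS/HI (adjusted p = 0.0049), and LPS/HI also exceeded NaCl/HI by 0.39 (adjusted p = 0.019). Both groups given LPS thus stood above both groups without it. Gpx1, a glutathione peroxidase, rose by 0.34 in LPS (adjusted p = 0.0011), and Gss, glutathione synthetase, rose by 0.26 in LPS/HI (adjusted p = 0.040).

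Of 13 genes for NADPH supply and other NRF2 targets, 5 rose in LPS and 3 in LPS/HI. Tkt and Taldo1, transketolase and transaldolase of the pentose phosphate pathway, rose by 0.41 and 0.38 in LPS and by 0.27 and 0.31 in LPS/HI. Blvra, biliverdin reductase, which acts after heme oxygenase, rose by 0.28 (adjusted p = 0.0030) and 0.23 (adjusted p = 0.021).

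Of 14 genes for iron and heme uptake, 1 fell in LPS, Lrp1, a receptor that takes up heme bound to hemopexin among many other ligands (by 0.40, adjusted p = 0.0016). In LPS/HI 1 rose, Tf, transferrin, by 0.22 (adjusted p = 0.042). Lcn2, lipocalin 2, which binds iron-carrying siderophores and is abundant in neutrophils, was one of 2 of the 89 genes called between LPS/HI and NaCl/HI, with 1.06 (SE 0.22, adjusted p = 0.046), and Glrx was the other. LPS/HI ranged from 7.64 to 8.99 and NaCl/HI from 6.93 to 7.30, and against Sham the difference of 0.45 did not pass (adjusted p = 0.183). Tfrc, the transferrin receptor, differed from Sham by -0.16 in LPS and by -0.12 in LPS/HI and did not pass. Of 12 genes for storage, export and regulation 0 passed in LPS by limma or the exact Wilcoxon test, and 1 had an unadjusted p under 0.05. In LPS/HI Cp, ceruloplasmin, a ferroxidase that astrocytes also make, rose by 0.22 (adjusted p = 0.042).

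Of 13 genes for heme synthesis and iron-sulfur clusters, 7 rose and 1 fell in LPS, while 1 rose in LPS/HI. Nfs1, the cysteine desulfurase, rose by 0.25 in LPS (adjusted p = 0.0022) and by 0.17 in LPS/HI (adjusted p = 0.036). Cpox, an enzyme of the heme pathway, rose by 0.24 in LPS (adjusted p = 0.016). Slc25a37, mitoferrin 1, which brings iron into mitochondria, fell by 0.23 in LPS (adjusted p = 0.046). Erythroid cells are known for heme synthesis, and of 8 measured erythroid markers 0 passed in either group by limma or the exact Wilcoxon test, with 3 in LPS and 2 in LPS/HI at an unadjusted p under 0.05. Whether LPS and LPS/HI differed in the number of heme genes called was not tested.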

How the data were processed

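RNA-sequencing values of 23 microglia samples were taken from the table the authors deposited. Per the labels and the methods, reads were quantified with kallisto 0.48.0 on mRatBN7.2, genes with fewer than 10 counts were left out, and DESeq2 was used for the rlog transformation. The deposited values are log2 values, from which the authors had removed 3 surrogate variables. They range from -1.35 to 23.4. No counts were analysed, so depth and counting error of a sample are unknown, which limits weakly expressed genes most.

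Samples were grouped by their titles. All 6 pairs of groups and the interaction were tested in 1 limma fit (limma 3.58.1, R 4.3.3) of all samples with a variance trend, with Benjamini-Hochberg adjustment over 20301 genes and a threshold of 0.05. The fit used 16 in place of 19 residual degrees of freedom, since 3 variables had been removed and the residuals span 16 dimensions. The fit was tested on simulated data. Within-sample ratios were compared with exact permutation tests (Python 3.11.15). The text names all members, Nfe2l2, Keap1, Bach1, Ftl1 and Tfrc, and per list up to 3 called genes with the largest absolute differences from Sham. Results of some single genes are not given. The marker genes, Gclm to Gclc and Fth1 to Ftl1 ratios, and near-identical copies were named in addition, after their values had been seen. The members and lists were chosen with earlier results of these data known. Alternatives were 19 degrees of freedom, no trend, robust variances, blocks of replicate number or library series, each series alone, low genes left out, 2 other scalings, only the groups compared, the exact Wilcoxon test, a fold threshold and leaving out each library. Titles count biological replicates, so p-values measure the spread between pups, or between pools of 2 pups in the HI groups.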

Additional observations from a re-analysis of the deposited data

Results flagged for a closer look

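Fth1 in NaCl/HI was the single member and group, of 40 examined, in which a sample lay far from the others. Replicate 4 had a log2 value of 13.67, and the nearest of the other 5 samples had 13.80, a gap that made up 0.741 of the range of the group. About 1 in 20 groups meets this limit by chance. Replicate 4 was the lowest NaCl/HI sample in 7 of 10 members (Hmox1, Nqo1, Gclm, Gclc, Txnrd1, Prdx1 and Fth1) and the highest in 1, Slc40a1. No interaction of LPS with HI passed the threshold among the members, and the lowest adjusted p in limma was 0.259.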

How the results depend on the processing

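No direction of a called gene reversed under any alternative run. Of the values of single genes under the alternatives, 44 lost a call, 12 gained one and the rest kept their side of the threshold. All 44 losses were among the 3 calls of LPS against Sham and the 4 of LPS/HI against Sham. Most were for Slc7a11 or Prdx1. Results without a call in the main fit had none to lose. The members called in LPS against Sham (3) became 0 with a fold above 2, 1 in replicates 1 to 3 (5.89% of all genes) and 0 in replicates 4 to 6 (2.61%), and with 1 library left out there were 2 to 3. Those in LPS/HI against Sham (4) became 0 with a fold above 2 and 0 in either series of replicates (1.21% and 0% of all genes), where fewer samples enter the fit, 6 with 19 residual degrees of freedom (Prdx1 and Slc40a1 added, 15.2% of all genes), 5 with only the groups compared (Prdx1 added, 10.6%), and 2 to 6 with 1 library left out (2 without LPS/HI replicate 3 or Sham replicate 6). In NaCl/HI against Sham there were 0 to 1 (Prdx1, without NaCl/HI replicate 4). With 19 residual degrees of freedom LPS/HI against NaCl/HI gained 1 (Fth1). LPS against NaCl/HI had 1 with 19 degrees of freedom, with the lowest 25% of genes left out or with median centring (Fth1) and 1 with quantile normalization (Gclc), and the cause was not tested. For these gains the share of all genes under the same setting is not given here. In LPS/HI against Sham 19 degrees of freedom raised that share from 8.77% to 15.2%. Leaving out the lowest 25% of genes also removed Srxn1. With 1 library left out, the share of all genes called ranged from 12.1% to 19.8% in LPS against Sham, from 0.438% to 2.39% in LPS/HI against LPS, from 0.00493% to 0.759% in LPS/HI against NaCl/HI, from 5.48% to 10.2% in LPS against NaCl/HI and from 0.217% to 2.49% for the interaction. Under the other alternatives for the fit these counts moved by 2 at most.

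Of the 89 further genes, 25 passed in LPS against Sham, 15 in replicates 1 to 3 and 2 in replicates 4 to 6, and 21 to 27 with 1 library left out. In LPS/HI against Sham 16 passed, 0 in either series, and 10 to 20 with 1 library left out (10 without LPS/HI replicate 5). In LPS against NaCl/HI 13 passed (14.6%, beside 8.98% of all genes). There were 22 with 19 degrees of freedom, for which the share of all genes is not given here. There were 4 and 1 in the 2 series, 5 with only the groups compared and 0 by the exact Wilcoxon test. With 1 library left out there were 6 to 16, with 8, 6 and 7 without LPS replicate 1, 2 and 4. The higher ratio of Gclm to Gclc in LPS than in Sham ranged from 0.10 to 0.15 with 1 library left out and passed in 4 of 11 such tests (exact permutation p from 0.019 to 0.095), not without Sham replicate 1, 3 or 6 or LPS replicate 1, 2, 3 or 5. The other ratio comparisons kept their calls.

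With the replicate number as a replicate block, 2 members passed in LPS against Sham (without Prdx1, 13.5% of all genes) and 3 in LPS/HI against Sham (without Slc7a11, 6.26% of all genes), and the other comparisons kept 0. The numbers do not pair samples by the labels. The correlation of deviations over 33 same-numbered pairs ran from -0.475 to 0.47 with a median of -0.03, and in 8 of them the same number had the highest correlation.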
